A study of Mus musculus with 6 samples.

Results

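Interleukin 4 (IL-4) and interleukin 13 bind receptors that share the IL-4 receptor alpha chain, and the kinases on those receptors phosphorylate the transcription factor STAT6. STAT6 then enters the nucleus, binds DNA and switches on the genes of the state called alternative or M2-like macrophage activation. The genes described here are 31 mouse genes known to be induced in macrophages by IL-4 through STAT6, among them the lectin receptor Mrc1, the enzyme Arg1, the chemokines Ccl17, Ccl22 and Ccl24, and the transcription factors Egr2 and Irf4. They were taken by name from the count tables, by a rule that uses no measured value. Earlier results of these data were known when the genes and lists were chosen. Chitinase-like, eicosanoid and ribonuclease genes were left out by the rule, so the list does not cover every gene that IL-4 induces. Of the 31 genes, 30 had an entry among the 40564 genes of the tables and Ccl8 was not analysed here. At least 1 read was counted for 29 of them, Cd209e being at 0 in every library, and 27 passed the filter on low counts that left 16765 genes for testing. Ccl24, Il31ra and Cd209e did not pass it.

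The RNA came from bronchoalveolar lavage (BALF) cells, which are the cells rinsed from the airspaces of the lung, mostly alveolar macrophages in a healthy mouse. There were 3 genotypes with 2 libraries each. WT is wild type. Cis_KO lacks CIS, the product of Cish, a feedback inhibitor of cytokine receptor signalling, and Cis_Stat6_DKO lacks both CIS and STAT6. No group lacks STAT6 alone, so every library without STAT6 is also without CIS, and the comparison of Cis_Stat6_DKO with Cis_KO is the one in which STAT6 is the only labelled difference. All cells were untreated: no IL-4 or IL-13 was given, and the values are resting levels in cells taken from the lung. The sources used here do not give the strain, age and sex of the mice, how the alleles were made, or whether the 2 libraries of a genotype come from separate mice, so p-values measure only the spread between these libraries.

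Library totals were 50762354 to 65937118 counts. Levels are given as CPM, each gene's count scaled to a common library size with TMM factors. Stat6 itself was at 233 and 227 CPM in WT and at 264 and 221 CPM in Cis_KO, against 31.6 and 25.5 CPM in Cis_Stat6_DKO. It fell by 3.09 on the log2 scale between Cis_KO and Cis_Stat6_DKO (SE 0.20, edgeR adjusted p = 0.0061). Cish was at 46.2 and 56.2 CPM in WT and between 1.72 and 5.04 CPM in the 4 libraries labelled as lacking CIS. Cis_KO replicate 2 stood apart from the other 5 libraries. Haemoglobin genes took 3.29% of its counts against 0.00156% to 0.0366% elsewhere, and 15855 genes had a count against 19641 to 20431. Its summed neutrophil markers reached 522 CPM against 74.3 to 222 elsewhere, and its B and plasma cell markers 52.7 CPM against 0.188 to 5.65. In WT and Cis_KO replicate 1 most of the neutrophil sum was Csf3r, at 61.8 to 116 CPM. Against those libraries, both Cis_Stat6_DKO libraries had more S100a9, at 27.7 and 72.3 CPM against 0.438 to 1.35. S100a8 was at 32.2 and 81.6 CPM against at most 16.6, and Retnlg was also higher in both. Csf3r, Ly6g, Ngp and Camp overlapped. The part of neutrophils in the values without STAT6 was not tested. All 10 alveolar macrophage markers were detected in every library. Their sum was 12546 and 19610.3 CPM with both proteins present (WT), 15676 and 11576 without CIS (Cis_KO), and 27696 and 37242 without CIS and STAT6 (Cis_Stat6_DKO). Most of that sum was Chil3, a chitinase-like gene and so outside the list. It was at 6881 to 15011 CPM with STAT6 and at 22278 and 31128 CPM without it. The 10 markers did not move together. Chil3, Marco, Itgax, Fabp4 and, by a narrow margin, Pparg were higher in both libraries without STAT6 than in the other 4. Ear1, at 408 and 282 CPM without STAT6 against 425 to 717 with it, and Fcgr1, at 45.7 and 31.3 against 48.0 to 88.7, were lower, and Siglecf, Car4 and Mertk overlapped. Eosinophil markers summed to at most 0.466 CPM in any library. In bulk RNA, fewer cells of a type and less RNA per cell cannot be told apart.

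None of the tested IL-4 and STAT6 genes was called lower without STAT6 by edgeR, and Emp1, the gene nearest to the threshold between Cis_Stat6_DKO and Cis_KO, was higher. With edgeR's quasi-likelihood test and an adjusted p under 0.05, 0 of the 27 tested genes were called between Cis_Stat6_DKO and Cis_KO, where 0.358% of all tested genes were called. At an unadjusted p under 0.05, 6 were higher and 1 was lower, beside 18.3% of all tested genes. The median log2 fold change of the 27 genes was 0.20, and that of all tested genes was 0.05. Against WT, 0 of 27 were called (0.131% of all genes), and 4 were higher and 0 lower at an unadjusted p under 0.05 (5.36% of all genes). DESeq2, a second count test, called more genes throughout. It called Igf1, Hbegf and Emp1 higher and Batf3 lower in Cis_Stat6_DKO than in Cis_KO (4 of 26 genes with an adjusted p, 9.12% of all genes). Against WT it called Cdh1, Igf1, Fcgr2b and Ch25h higher and none lower (1.94% of all genes). The limma-voom test called 0 of 27 in either comparison (0.37% and 0.155% of all genes). With 1 Cis_KO library left out, edgeR called more of the 27 genes and more of all tested genes in both comparisons. Against WT these calls were all higher. Against Cis_KO they were all higher without Cis_KO replicate 2, the library that stood apart. Without Cis_KO replicate 1, where the deviant library stands for Cis_KO alone, they went both ways. In these fits the lone Cis_KO library is assumed to vary like the other genotypes, so their p-values are not given. Leaving out a WT or a Cis_Stat6_DKO library gave 0 calls among the 27 genes.

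Sorted library by library, 3 of the 27 genes were lower in both Cis_Stat6_DKO libraries than in all 4 libraries with STAT6, namely Batf3, Myc and Tgm2. Among all tested genes 11.6% had that order. The reverse order, with both libraries above all 4, held for 5 genes, Cd200r1, Ch25h, Dcstamp, Emp1 and Igf1, and for 13.9% of all tested genes. The remaining 19 genes overlapped. Without Cis_KO replicate 2 the same 3 genes were below (16.9% of all tested genes), and Cdh1 joined the 5 above (17.6%). By the deposited FPKM, the same 5 genes were above (11.1% of all tested genes), while Batf3 alone was below (9.53%).

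**Figure D1:**
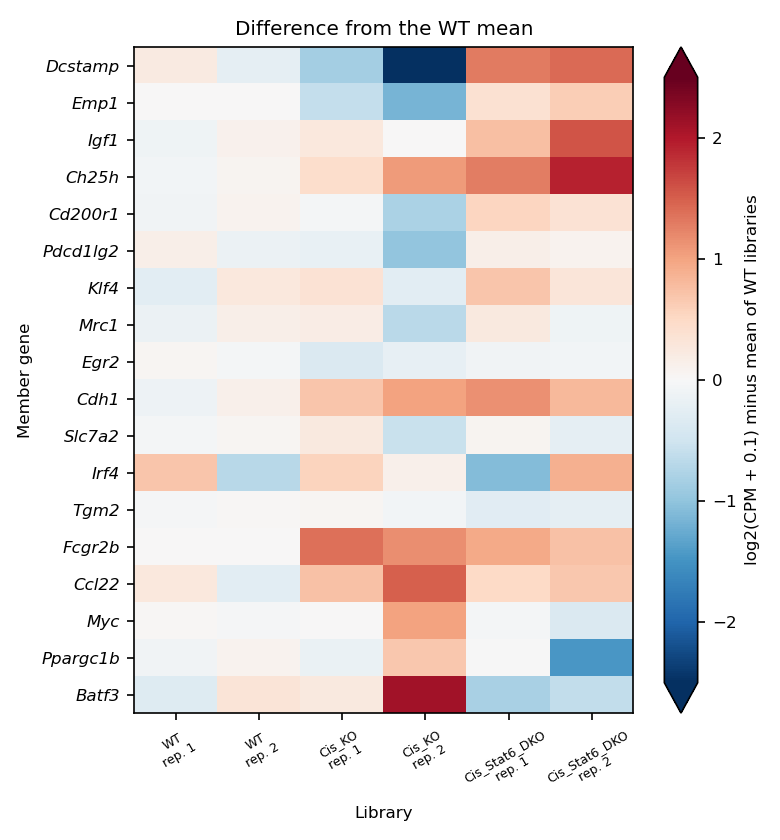
Colour map of log2(CPM + 0.1) in each library minus the mean of the WT libraries, with the 18 tested genes of a mean of at least 3 CPM as lines, ordered by their fold change between Cis_Stat6_DKO and Cis_KO, and the 6 libraries as columns. Tgm2, Egr2, Slc7a2 and Mrc1 stay pale in the columns without STAT6, Ch25h, Igf1 and Emp1 are above WT in both, and Dcstamp in Cis_KO replicate 2, at -5.98, lies beyond the end of the colour scale.

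The genes differed far more in level than between genotypes. By the deposited FPKM, which divides counts by gene length and library total and so allows genes to be compared, Mrc1 was highest with a mean of 175 over the 6 libraries. It was followed by Tgm2 at 139.8, Slc7a2 at 58.9, Ch25h at 39.0, Emp1 at 32.5, Cd200r1 at 20.2 and Egr2 at 13.3 FPKM. Klf4, Fcgr2b, Cdh1, Myc and Igf1 had means of 6.05 to 11.7 FPKM. Ccl22, Batf3, Dcstamp, Irf4, Pdcd1lg2 and Ccl17 had means of 1.28 to 4.74 FPKM. The other 12 genes had means under 1 FPKM, and these include Arg1 at 0.343, Mgl2 at 0.315 and Clec10a at 0.238 FPKM, 3 of the genes most often used to recognise IL-4 activation in mouse macrophages. They were this low in WT as well, where STAT6 is present, with 15 and 47 counts of Arg1, 27 and 10 of Mgl2, and 37 and 57 of Clec10a in WT replicates 1 and 2.

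**Figure D2:**
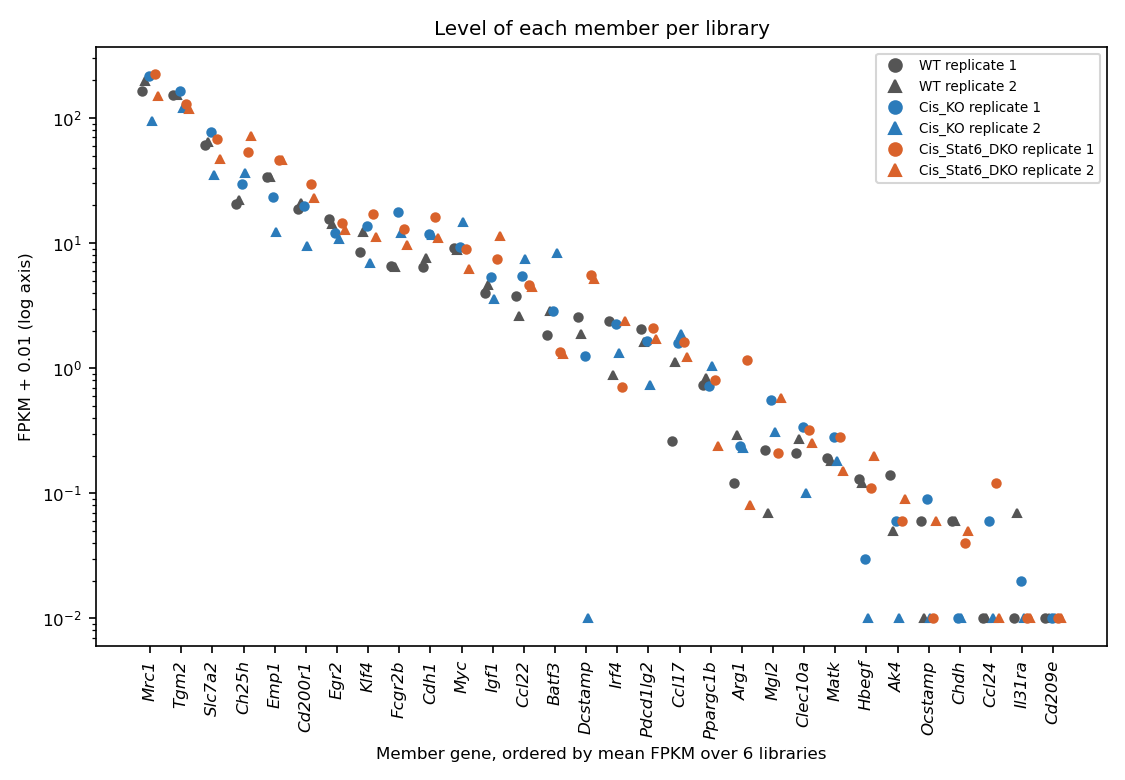
Deposited FPKM plus 0.01 of each of the 30 genes on a log axis, ordered by mean FPKM, with 1 point for each of the 6 libraries coloured by genotype and shaped by replicate. Mrc1 and Tgm2, with means of 175 and 139.8 FPKM, lie highest in every genotype, whereas Arg1, Mgl2 and Clec10a lie under 1 FPKM on average, in WT as in the other genotypes.

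STAT proteins bind DNA as dimers at inverted TTC and GAA repeats, and STAT6 is known for preferring a spacer of 4 bases where most other STATs prefer 3. RefSeq promoter windows on GRCm38.p6 (the mm10 assembly), from 250 bases before to 50 bases after a gene's start, were at hand for 19 of the 31 genes. The 4-base-spacer motif TTCNNNNGAA, which reads alike on both strands, was present in the windows of 3 of those 19 genes, Ccl17, Pdcd1lg2 and Cd209e, and in 8.01% of all genes with a window. The 3-base-spacer motif TTCNNNGAA was present in 5, Batf3, Ccl17, Chdh, Emp1 and Il31ra, and in 9.55% of all genes with a window. The 2 motifs cannot share the same pair of repeats. The stretches printed here are those of the 3 genes with the 4-base spacer, and of Emp1, which had the smallest p of the 27 genes between the 2 genotypes that differ in STAT6. The Emp1 stretch, before a RefSeq start, lies inside the gene as the count tables place it, as do the matches of Batf3, Chdh and Il31ra, because the tables' gene begins further upstream. Capitals mark the motif, and each stretch lies 5′ to 3′ on the gene's own strand.
Ccl17, chr8:94810274-94810387, plus strand: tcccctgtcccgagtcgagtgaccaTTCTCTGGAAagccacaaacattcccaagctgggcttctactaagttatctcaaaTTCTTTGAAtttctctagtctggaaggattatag
Pdcd1lg2, chr19:29410812-29410871, plus strand: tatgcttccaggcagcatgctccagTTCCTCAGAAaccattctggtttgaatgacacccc
Cd209e, chr8:3854331-3854390, minus strand: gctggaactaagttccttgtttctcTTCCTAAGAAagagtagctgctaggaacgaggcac
Emp1, chr6:135362786-135362930, plus strand: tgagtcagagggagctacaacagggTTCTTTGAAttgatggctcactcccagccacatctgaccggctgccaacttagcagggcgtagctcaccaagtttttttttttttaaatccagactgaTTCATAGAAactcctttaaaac
The Ccl17 stretch holds both spacers, 4 bases first and 3 bases further on, and the Emp1 stretch holds the 3-base spacer in 2 places. All 3 genes with the 4-base spacer were weakly expressed. Ccl17 had a mean of 1.28 FPKM, Pdcd1lg2 1.63 FPKM and Cd209e no read at all. A match of letters is a description of the window and not a measured binding site.

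Among the surface receptors, the strongly expressed Mrc1 (chr2:14229392-14332057), the mannose receptor CD206 that takes up glycoproteins, was at 1117 and 1359 CPM in the WT pair, 1402 and 776 in the Cis_KO pair, and 1468 and 1146 in the Cis_Stat6_DKO pair. The genotypes overlapped, and the library with the lowest value was Cis_KO replicate 2. The log2 fold change of Mrc1 was 0.26 ± 0.32 (SE, n = 2 per group, 95% interval -0.49 to 1.02) against Cis_KO and 0.08 ± 0.32 (-0.68 to 0.83) against WT. In folds, the level without STAT6 was between 0.71 and 2.03 times that of Cis_KO and between 0.625 and 1.78 times that of WT, so a loss of more than that lower bound lies outside the interval. Without Cis_KO replicate 1 the difference from Cis_KO was 0.76, and without Cis_KO replicate 2 it was -0.11.

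Cd200r1, the inhibitory receptor for CD200 through which neighbouring cells restrain macrophages, was at 66.4 and 74.6 CPM in WT replicates 1 and 2, 68.0 and 40.7 in those of Cis_KO, and 102 and 91.1 in those of Cis_Stat6_DKO. Both libraries without STAT6 were above the other 4. Against Cis_KO the log2 fold change was 0.82 ± 0.27 (95% interval 0.18 to 1.47, edgeR adjusted p = 0.219). Against WT it was 0.45 ± 0.27 (-0.19 to 1.09). Leaving out Cis_KO replicate 1 gave a log2 fold change of 1.25 against Cis_KO, and leaving out replicate 2 gave 0.49.

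Fcgr2b (chr1:170958617-170976547), the inhibitory receptor for IgG, was at 39.9 and 40.0 CPM in the WT pair, 104 and 89.2 in the Cis_KO pair, and 76.9 and 66.5 in the Cis_Stat6_DKO pair. All 4 libraries without CIS were above both WT libraries, and those that also lack STAT6 were between WT and Cis_KO. Fcgr2b had the smallest p of the 27 genes between Cis_KO and WT, with a log2 fold change of 1.27 ± 0.19 (95% interval 0.83 to 1.72), and narrowly missed the threshold (edgeR adjusted p = 0.0707). It passed in DESeq2 (adjusted p = 5.55e-07). Against WT, Cis_Stat6_DKO differed by 0.84 ± 0.18 (0.40 to 1.29, edgeR adjusted p = 0.305), and against Cis_KO by -0.43 ± 0.18 (-0.87 to 0.01, adjusted p = 0.28).

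The remaining receptors were barely detected. The galactose-type lectins Mgl2 and Clec10a were at 0.146 to 1.46 and 0.343 to 1.02 CPM over the 6 libraries, with libraries with and without STAT6 overlapping. Their 95% intervals between Cis_Stat6_DKO and Cis_KO ran from 0.173 to 5.03 times for Mgl2 and from 0.311 to 5.75 times for Clec10a, so a fall of severalfold lies within both intervals. They are neighbouring, closely related genes on chromosome 11, and the sources used here do not say how reads that match both were counted. Il31ra, a receptor chain for interleukin 31, had 1 and 27 counts in the WT pair, 5 and 0 in the Cis_KO pair, and 2 and 1 in the Cis_Stat6_DKO pair. It overlaps Gm3226, a gene on the same strand with 8434 counts, so its few reads are uncertain. Cd209e, a DC-SIGN-related lectin, had no count in any library.

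The chemokines of the list draw T helper type 2 cells and eosinophils to tissue. Ccl22, a ligand of the receptor CCR4, was at 9.35 and 6.53 CPM in WT replicates 1 and 2, 13.0 and 22.3 in those of Cis_KO, and 11 and 12.5 in those of Cis_Stat6_DKO. The Cis_KO libraries were both above the other 4. Its log2 fold change was -0.59 ± 0.34 (95% interval -1.41 to 0.24) between Cis_Stat6_DKO and Cis_KO, 0.56 ± 0.34 between Cis_Stat6_DKO and WT, and 1.15 ± 0.35 between Cis_KO and WT (edgeR adjusted p = 0.406). Without Cis_KO replicate 1 the log2 fold change of Ccl22 against Cis_KO was -0.92, and without Cis_KO replicate 2 it was -0.16.

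Ccl17, the other CCR4 ligand and the gene whose promoter holds both spacers, was at 0.155 and 0.614 CPM in the WT pair, 0.844 and 1.26 in the Cis_KO pair, and 0.852 and 0.761 in the Cis_Stat6_DKO pair. These values rest on 9 to 59 counts. Both libraries without STAT6 had more Ccl17 than either WT library, and the interval against WT ran from 0.423 to 10.3 times. Ccl24, an eosinophil attractant also called eotaxin 2, had 4 counts in Cis_KO replicate 1, 11 in Cis_Stat6_DKO replicate 1 and 0 in the other 4 libraries. Ccl17 and Ccl22 are also made by dendritic cells. The 9 dendritic cell markers that are not among these genes summed to 7.29 to 16.6 CPM in 5 libraries and to 24.8 CPM in Cis_KO replicate 2, which also had the highest Ccl22 and Ccl17, and their part in those values was not tested.

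Of the genes of arginine handling, Arg1 encodes arginase 1, which splits arginine into ornithine and urea and is the textbook marker of IL-4 activation in mouse macrophages. It was at 0.259 and 0.687 CPM in WT replicates 1 and 2, 0.563 and 0.639 in those of Cis_KO, and 2.66 and 0.206 in those of Cis_Stat6_DKO, or 10 to 184 counts. The highest and the lowest library were both without STAT6, and the interval against Cis_KO spanned 0.302 to 18.8 times. Slc7a2 (chr8:40862396-40922308), the cationic amino acid transporter that brings arginine into the cell, was strongly expressed, in contrast to Arg1. It was at 591 and 626 CPM in the WT pair, 718 and 416 in the Cis_KO pair, and 639 and 517 in the Cis_Stat6_DKO pair. Its log2 fold change was 0.03 ± 0.28 (95% interval -0.65 to 0.71) against Cis_KO and -0.07 ± 0.28 (-0.75 to 0.61) against WT, with a lower bound of 0.636 times against Cis_KO and 0.593 times against WT. The genotypes overlapped, the 2 Cis_KO libraries being the highest and the lowest of the 6.

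Tgm2 (chr2:158116402-158146436) encodes transglutaminase 2, which crosslinks proteins and is induced by IL-4 in both mouse and human macrophages. It was at 743 and 759.7 CPM in WT replicates 1 and 2, 772 and 715 in those of Cis_KO, and 616 and 645 in those of Cis_Stat6_DKO. Tgm2 was the one strongly expressed gene of the list that was lower in both libraries without STAT6 than in all 4 others. The difference was small, with a log2 fold change of -0.24 ± 0.17 (95% interval -0.65 to 0.17, edgeR adjusted p = 0.478) against Cis_KO and -0.25 ± 0.17 (-0.66 to 0.15) against WT. The level without STAT6 was 0.848 times that of Cis_KO, with an interval of 0.639 to 1.12 times, which contains no change. Without scaling of the libraries, and by the deposited FPKM, Tgm2 overlapped between libraries with and without STAT6.

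Ch25h (chr19:34473778-34475164) encodes cholesterol 25-hydroxylase, which makes 25-hydroxycholesterol, an oxysterol that acts on lipid metabolism and in antiviral defence. It was at 30 and 32.7 CPM in the WT pair, 42.2 and 65.5 in the Cis_KO pair, and 76.3 and 118 in the Cis_Stat6_DKO pair. The 3 genotypes did not overlap, and the order was WT, Cis_KO, Cis_Stat6_DKO. Between Cis_Stat6_DKO and WT the log2 fold change was 1.64 ± 0.31 (95% interval 0.91 to 2.37, edgeR adjusted p = 0.204), or 3.11 times. Against Cis_KO it was 0.85 ± 0.30 (0.14 to 1.57, adjusted p = 0.232). The comparison with WT passed in DESeq2 (adjusted p = 0.000178) and in edgeR on the 4 libraries of those 2 genotypes (0.0225). Gm26902, which overlaps Ch25h on the other strand, had 1453 counts in all against 20583 for Ch25h.

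Ak4 and Chdh are enzymes of mitochondria, an adenylate kinase and choline dehydrogenase. Ak4 was at 0 to 0.638 CPM with the genotypes overlapping. Chdh was at 0.345 and 0.351 CPM in WT, at 0 in both Cis_KO libraries, and at 0.202 and 0.308 CPM in Cis_Stat6_DKO. With 3 counts put in place of 0 over the 2 Cis_KO libraries, Chdh was 12.5-fold lower in Cis_KO than in WT, where it had 44 counts. By the same measure it was 8.84-fold lower than in Cis_Stat6_DKO, where it had 29. These folds take the 44 and 29 counts as exact and leave out the spread between libraries. Reads of Cacna1d, which overlaps Chdh on the other strand with 141 counts, cannot be told apart where the counting did not use strand.

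Among the transcription factors, Egr2 (chr10:67535475-67542188), an early factor that IL-4 induces and that opens later IL-4 target genes, was at 55.8 and 52.1 CPM in WT replicates 1 and 2, 42.0 and 46.9 in those of Cis_KO, and 50.6 and 51.5 in those of Cis_Stat6_DKO. The values without STAT6 were close to each other and just below those of WT. Relative to Cis_KO, the log2 fold change was 0.20 ± 0.18 (95% interval -0.22 to 0.62), and relative to WT -0.08 ± 0.18 (-0.50 to 0.34). The corresponding range against WT was 0.705 to 1.27 times, the narrowest of the transcription factors on the list.

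Klf4, a zinc finger factor that cooperates with STAT6, was at 27.5 and 40.0 CPM in the WT pair, 42.6 and 27.5 in the Cis_KO pair, and 53.9 and 41.0 in the Cis_Stat6_DKO pair. Its log2 fold change was 0.44 ± 0.31 against Cis_KO and 0.49 ± 0.31 against WT, with the libraries of Cis_KO and Cis_Stat6_DKO overlapping. Irf4, which drives Arg1 and other IL-4 targets after induction by STAT6, varied widely within genotypes. It was at 12.4 and 4.63 CPM in WT replicates 1 and 2, 11.2 and 8.29 in those of Cis_KO, and 3.54 and 14.0 in those of Cis_Stat6_DKO, so that the lowest and the highest values were both without STAT6. Its log2 fold change was -0.15 ± 0.71 against Cis_KO and 0.04 ± 0.71 against WT (95% interval -1.65 to 1.74), and the sign of the second depended on the test and scaling.

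Batf3, the factor known for the development of cross-presenting dendritic cells and also induced by IL-4 in macrophages, was at 3.14 and 4.94 CPM in the WT pair, 4.67 and 17.1 in the Cis_KO pair, and 2.2 and 2.53 in the Cis_Stat6_DKO pair. Both libraries without STAT6 were the lowest, and Cis_KO replicate 2 was the highest by far. Relative to Cis_KO its log2 fold change was -2.20 ± 0.65 (95% interval -3.75 to -0.66, edgeR adjusted p = 0.196), and DESeq2 gave -2.23 (adjusted p = 0.0103). Without Cis_KO replicate 2 it was -0.99, and without Cis_KO replicate 1 it was -2.85. Against WT it was -0.77 ± 0.62 (-2.27 to 0.72).

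Myc, a driver of growth and biosynthesis that IL-4 induces in human macrophages, was at 26.3 and 25.6 CPM in WT replicates 1 and 2, 25.9 and 51.9 in those of Cis_KO, and 25.1 and 20.2 in those of Cis_Stat6_DKO. As with Batf3, the values without STAT6 were the lowest and 1 library, Cis_KO replicate 2, was far above the rest. The log2 fold change of Myc was -0.78 ± 0.34 (95% interval -1.59 to 0.03, edgeR adjusted p = 0.286) against Cis_KO. It was -0.20 without that library and -1.19 without Cis_KO replicate 1. Against WT it was -0.20 ± 0.34. Cis_KO replicate 2 also had the highest sums of dendritic, neutrophil and B cell markers, at 24.8, 522 and 52.7 CPM, whose part in the values of Batf3 and Myc was not tested.

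Ppargc1b, the coactivator PGC-1 beta that supports mitochondrial respiration in IL-4 activated macrophages, was at 3.07 and 3.49 CPM in the WT pair, 2.91 and 5.32 in the Cis_KO pair, and 3.25 and 1.13 in the Cis_Stat6_DKO pair. The genotypes overlapped, and the log2 fold change was -0.90 ± 0.63 (95% interval -2.41 to 0.61) against Cis_KO and -0.58 ± 0.63 against WT. Leaving out Cis_Stat6_DKO replicate 1 or 2 moved the first to -1.86 or -0.33 and the second to -1.55 or -0.01. Matk, a kinase that restrains Src family kinases, was at 0.823 to 1.29 CPM, the lowest and the highest value being those of the 2 Cis_Stat6_DKO libraries.

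IL-4 also makes macrophages adhere and fuse into giant cells. Cdh1 (chr8:106603351-106670246) encodes E-cadherin, which is needed for that adhesion and is also the main adhesion protein of epithelium. It was at 31.2 and 37.0 CPM in WT replicates 1 and 2, 55.0 and 68.6 in those of Cis_KO, and 75.4 and 59.6 in those of Cis_Stat6_DKO. All 4 libraries without CIS were above both WT libraries, and the libraries with and without STAT6 overlapped among them. Cis_Stat6_DKO differed from WT by 0.99 ± 0.22 on the log2 scale (95% interval 0.45 to 1.52, edgeR adjusted p = 0.334, DESeq2 adjusted p = 0.0142) and from Cis_KO by 0.13 ± 0.22 (-0.40 to 0.66). The difference between Cis_KO and WT was 0.86 ± 0.22 (edgeR adjusted p = 0.34, DESeq2 adjusted p = 0.0368). Without Cis_KO replicate 1 or 2, the log2 fold change between Cis_Stat6_DKO and Cis_KO was -0.01 or 0.29. The sum of 8 epithelial markers, most of it Krt19, was 577 and 563 CPM in the WT pair, 788 and 1342 in the Cis_KO pair, and 465 and 335 in the Cis_Stat6_DKO pair, and the epithelial marker Epcam was at 22.6 to 28.9 CPM in WT against 3.15 to 7.46 CPM in the 4 libraries without CIS. The sum was above WT in both Cis_KO libraries, but in replicate 1 through Krt19 alone. Krt19 was at 757 CPM there against 501 and 474 CPM in WT, and every other marker of the sum was below both WT libraries. In Cis_KO replicate 2 every marker but Epcam was above WT. Unlike Cdh1, the sum was below WT in Cis_Stat6_DKO. The part of epithelial cells in Cdh1 was not tested.

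Dcstamp, a membrane protein required for cell fusion, was at 7.25 and 5.29 CPM in WT replicates 1 and 2, 3.41 and 0 in those of Cis_KO, and 15.3 and 16.6 in those of Cis_Stat6_DKO. Both libraries without STAT6 were above all 4 others, and Cis_KO replicate 2 had no read. The log2 fold change against WT was 1.35 ± 1.37 (95% interval -1.92 to 4.62), while that against Cis_KO, 3.20 ± 1.47 (-0.31 to 6.72, edgeR adjusted p = 0.3), depends on the library at 0. Without that library it was 2.22, and the log2 fold change against WT was 1.34. Its partner in fusion, Ocstamp, was at 0 to 0.313 CPM and overlapped between genotypes.

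**Figure D3:**
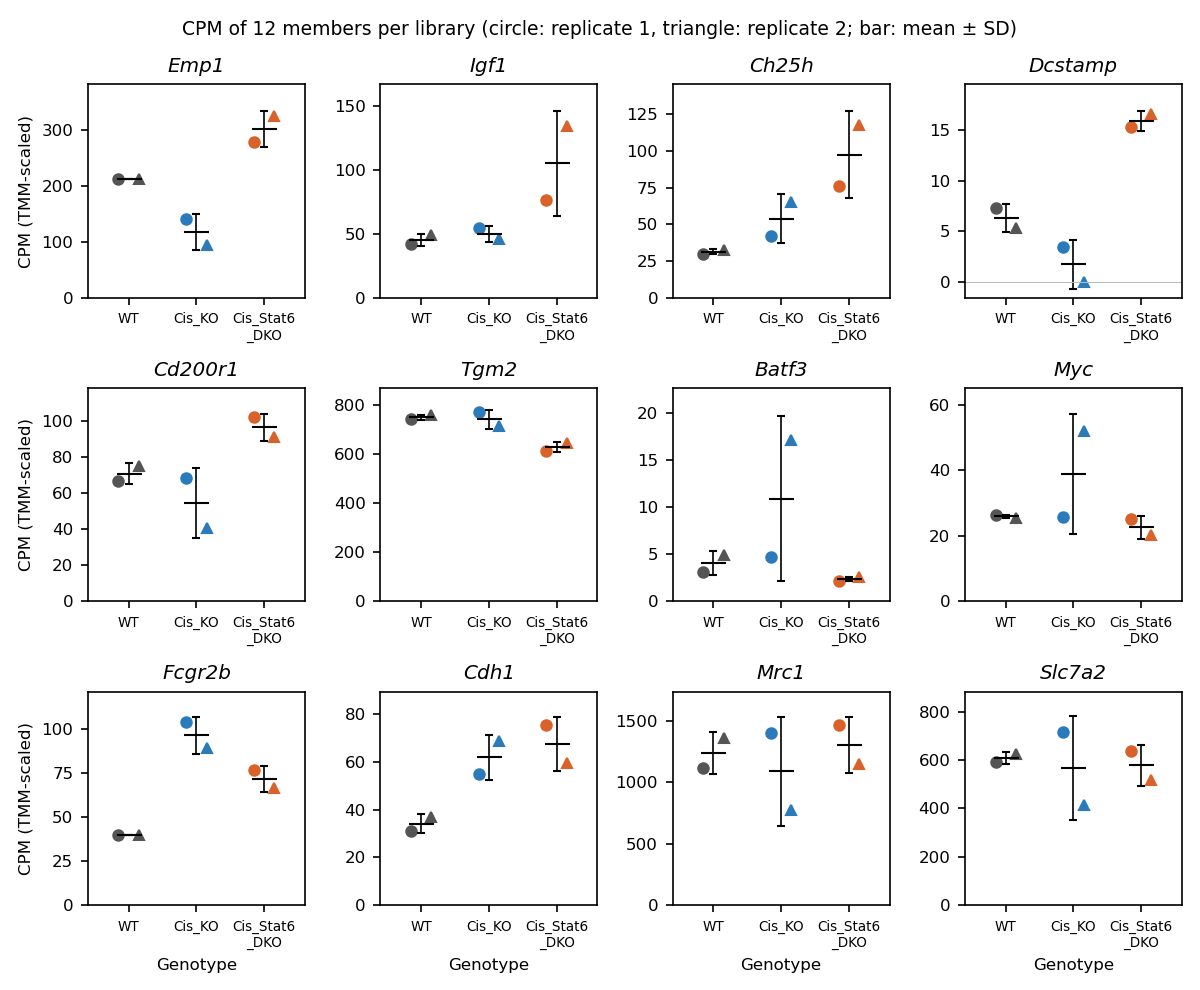
TMM-scaled CPM of 12 genes, 1 panel per gene with its own linear axis, circles for replicate 1 and triangles for replicate 2 of each genotype, and bars for the mean ± SD (n = 2). Ch25h, Emp1 and Igf1 have both Cis_Stat6_DKO points above the other 4, Fcgr2b and Cdh1 have all points without CIS above WT, and Batf3 and Myc have 1 high point in Cis_KO replicate 2.

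Emp1 (chr6:135362545-135383173), a small membrane protein of the epithelial membrane protein family, was at 213 and 213 CPM in the WT pair, 141 and 94.4 in the Cis_KO pair, and 279.9 and 325 in the Cis_Stat6_DKO pair. The 3 genotypes did not overlap: Cis_KO was lowest and Cis_Stat6_DKO highest. Between the genotypes that differ in STAT6 the log2 fold change was 1.36 ± 0.23 (95% interval 0.81 to 1.92), or 2.57 times, and it missed the threshold (edgeR adjusted p = 0.0883). It passed in DESeq2 (adjusted p = 2.11e-05). In edgeR the log2 fold change was 1.69 without Cis_KO replicate 1 and 1.09 without replicate 2. Cis_KO differed from WT by -0.86 ± 0.23 (edgeR adjusted p = 0.357, DESeq2 adjusted p = 0.0399). Cis_Stat6_DKO differed from WT by 0.51 ± 0.23 (-0.04 to 1.06, edgeR adjusted p = 0.985).

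Igf1 (chr10:87858265-87937042), insulin-like growth factor 1, which macrophages release in tissue repair, was at 41.8 and 48.6 CPM in WT replicates 1 and 2, 54.2 and 45.5 in those of Cis_KO, and 76.2 and 134 in those of Cis_Stat6_DKO. Both libraries without STAT6 were above the other 4, which lay close together. The log2 fold change was 1.08 ± 0.30 (95% interval 0.37 to 1.78, edgeR adjusted p = 0.184, DESeq2 adjusted p = 0.0197) against Cis_KO and 1.22 ± 0.30 (0.51 to 1.93, edgeR adjusted p = 0.4, DESeq2 adjusted p = 0.0134) against WT. The log2 fold change against Cis_KO was 1.22 without Cis_KO replicate 1 and 0.95 without replicate 2. Stromal and endothelial markers, from cells that also make Igf1, summed to 1.84 to 5.16 CPM and overlapped between genotypes. The alveolar macrophage marker sum, 27696 and 37242 CPM without STAT6 against 11576 to 19610.3 CPM with it and mostly Chil3, was highest in the same 2 libraries as Igf1, Emp1 and Ch25h. The markers Ear1 and Fcgr1 were lowest there and Siglecf overlapped, at 201 and 139.9 CPM against 177 to 232, and the part of these cells in the values was not tested.

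Hbegf, a heparin-binding growth factor of the EGF family, was at 0.621 and 0.614 CPM in the WT pair, 0.0938 and 0 in the Cis_KO pair, and 0.506 and 1.13 in the Cis_Stat6_DKO pair. WT and Cis_Stat6_DKO overlapped, and Cis_KO was below both. These values rest on 36 and 42 counts in the WT pair, 6 and 0 in the Cis_KO pair, and 35 and 55 in the Cis_Stat6_DKO pair. The 0 was in Cis_KO replicate 2, the library that stood apart. The interval against Cis_KO ran from 1.2 to 212 times. Pdcd1lg2, the checkpoint ligand PD-L2 that binds PD-1 on T cells, was at 4.21 and 3.39 CPM in WT replicates 1 and 2, 3.31 and 1.87 in those of Cis_KO, and 4.18 and 4.03 in those of Cis_Stat6_DKO. WT and Cis_Stat6_DKO overlapped, with log2 fold changes of 0.11 ± 0.46 against WT and 0.66 ± 0.46 (95% interval -0.45 to 1.77) against Cis_KO. A930007I19Rik, which overlaps Pdcd1lg2 on the other strand, had 9549 counts against 1255 for Pdcd1lg2, so the source of the reads is uncertain without strand.

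**Figure D4:**
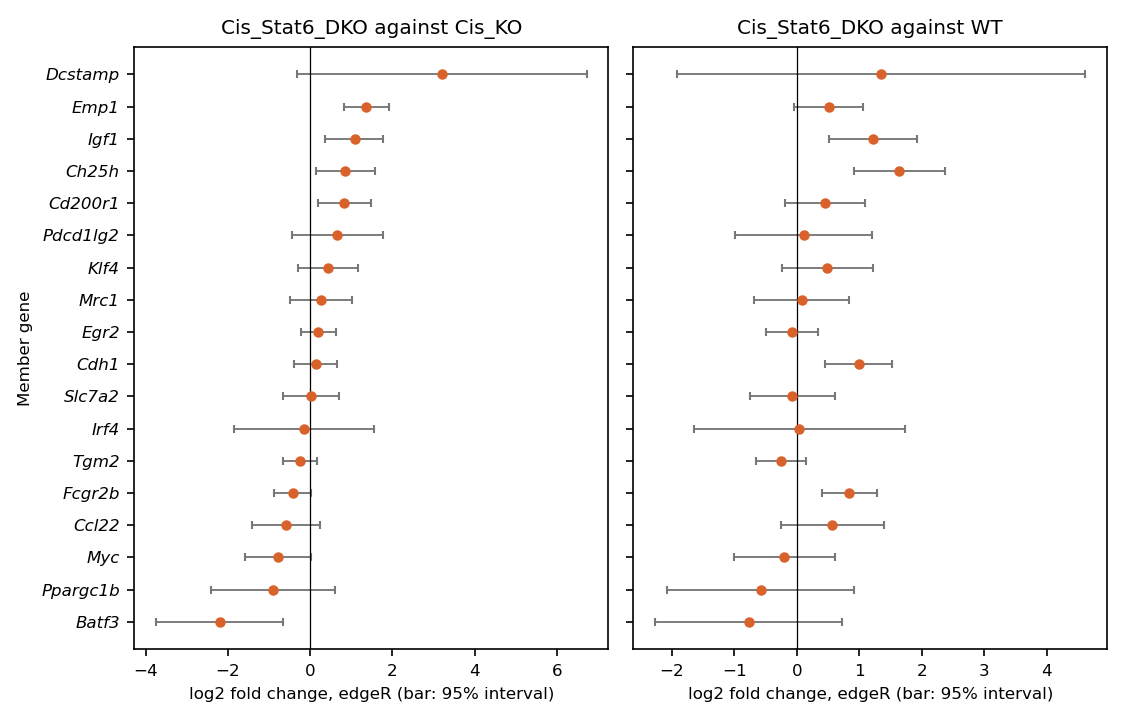
Log2 fold change (points) and 95% interval (bars) of the 18 tested genes with a mean of at least 3 CPM between Cis_Stat6_DKO and Cis_KO and between Cis_Stat6_DKO and WT, from edgeR, with a vertical line at 0. The intervals of Tgm2, Egr2, Slc7a2 and Mrc1 contain 0 in both comparisons. In the comparison with Cis_KO, that of Mrc1, -0.49 to 1.02, is longer than that of Emp1, 0.81 to 1.92. There the intervals of Emp1, Igf1, Ch25h and Cd200r1 lie above 0 and that of Batf3 below 0. Weakly expressed Dcstamp and Irf4 have wide intervals.

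Loss of CIS alone went with higher Fcgr2b and Cdh1 and lower Emp1 by DESeq2, and with no call by edgeR. Between Cis_KO and WT edgeR called 0 of 27 (0.274% of all tested genes) and limma-voom 0 (0.221%). At an unadjusted p under 0.05, 4 were higher and 2 lower (11.1% of all tested genes). When 1 Cis_KO library was left out, edgeR called more of the 27 genes and more of all tested genes. The 3 DESeq2 calls compare with 3.14% of all genes. Ch25h differed between Cis_KO and WT by 0.78 ± 0.30 on the log2 scale (edgeR adjusted p = 0.437). The median log2 fold change was 0.14 for the 27 genes and -0.05 for all tested genes. The comparison shares its Cis_KO libraries with the first comparison and its WT libraries with the second, so its values are not independent of theirs.

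Set against the mean of both genotypes with STAT6, Cis_Stat6_DKO again had 0 of 27 genes called by edgeR (0.185% of all tested genes) and 0 by limma-voom (0.221%). At an unadjusted p under 0.05, 5 were higher and 1 lower (11.6% of all tested genes). DESeq2 called Igf1, Emp1 and Ch25h higher and none lower (4.58%). Leaving out 1 Cis_KO library gave more calls by edgeR among the 27 genes and among all tested genes. Those among the 27 were all higher without replicate 2, and went both ways without replicate 1. With all libraries and no filter, edgeR called 4 higher and Batf3 lower, beside 944 genes in all. The median log2 fold change was 0.36 for the 27 genes and 0.04 for all tested genes.

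The rest of the IL-4 and IL-13 pathway was read from 26 genes that are not on the list, covering the cytokines, receptor chains, kinases, adaptors, feedback inhibitors and cofactors. All 26 had an entry and 24 were tested. In Cis_Stat6_DKO, edgeR called 1 of the 24 lower and 0 higher against Cis_KO (0.358% of all tested genes), and the same numbers against WT (0.131%), the called gene being Stat6 itself each time. At an unadjusted p under 0.05, Stat6 was lower and Il13ra1, Tfec and Bhlhe40 were higher against Cis_KO (18.3% of all tested genes), and Stat6 and Cish were lower and Il13ra1 higher against WT (5.36%). Between Cis_KO and WT edgeR called 0 of 24 (0.274%), and Cish and Ep300 were lower at an unadjusted p under 0.05 (11.1%). The log2 fold change of Cish there was -3.70 ± 0.52 (edgeR adjusted p = 0.0624). The edgeR test thus missed the gene of the protein that Cis_KO lacks, in spite of its large fall. DESeq2 called Cish and no other of these pathway genes in that comparison (3.14% of all genes). Il13ra1, the receptor chain that pairs with the IL-4 receptor alpha chain outside the lymphoid lineage, was at 74.9 and 80.9 CPM in the WT pair, 82.6 and 65.7 in the Cis_KO pair, and 114 and 108 in the Cis_Stat6_DKO pair. Both libraries without STAT6 were above the other 4, with a log2 fold change of 0.58 ± 0.19 against Cis_KO (edgeR adjusted p = 0.219). Il4ra, the shared receptor chain itself, was at 138 and 165 CPM in WT replicates 1 and 2, 174 and 223 in those of Cis_KO, and 191 and 132 in those of Cis_Stat6_DKO, with the genotypes overlapping. Receptor protein was not measured, and bulk RNA does not show which cells carry the receptor.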

How the data were processed

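RNA of untreated bronchoalveolar lavage cells was extracted with Trizol, per the labels' protocols, in 6 libraries of 3 genotypes. The authors deposited raw read counts for each gene. Their deposited FPKM values scale these counts to the gene's length and the library total. The submitters' processing notes name the build mm10. The sources used here name no aligner, counting tool or use of strand. The test was run in R 4.3.3 with edgeR 4.0.16. All 6 libraries entered 1 fit with genotype as the factor, TMM scaling and filterByExpr, and levels are CPM from the same factors. The quasi-likelihood F test was two-sided with a Benjamini-Hochberg adjusted p under 0.05 over 16765 genes. Standard errors are the log2 fold change over the square root of F, with 95% intervals from the t distribution. The common biological coefficient of variation was 50.3% on 3 residual degrees of freedom. DESeq2 1.42.0 and limma-voom (limma 3.58.1) were alternatives, with others of scaling, filter, libraries and, added after the data were seen, robust empirical Bayes. Every gene of the list is accounted for. Of the other pathway genes, Stat6 and Cish are given by rule. Il13ra1, Il4ra, Ep300, Tfec and Bhlhe40 were named after their values were seen. The genes and lists were chosen with earlier results of these data known.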

Additional observations from a re-analysis of the deposited data

How the results depend on the processing

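The number of genes called by edgeR between Cis_Stat6_DKO and Cis_KO was 60, and became 1510 with DESeq2, 29 without scaling, 1840 without a filter, 5 with only the genotypes compared, 191 and 99 with limma-trend on log2(FPKM + 1) and log2(FPKM + 0.1), and 2 on log2(FPKM + 1) with no minimum. Leaving out 1 library at a time gave 4 to 5999. Against WT it was 22, and became 321 with DESeq2, 385 without a filter, 277 with only the genotypes compared, 52 and 35 on FPKM, and 1 with no minimum, with 0 to 350 when 1 library was left out. Between Cis_KO and WT it was 46, and became 535 with DESeq2, 26 without scaling, 1021 without a filter, 6 with only the genotypes compared, 74 on log2(FPKM + 1) and 2 with no minimum, with 3 to 5349. Against both genotypes with STAT6 it was 31, and became 758 with DESeq2, 944 without a filter, 116 on log2(FPKM + 1) and 0 with no minimum, with 0 to 4016. With the replicate number as a block the counts were 28, 12, 24 and 20, and 0 of the 27 genes were called. Deviations from the genotype means correlated between same-numbered libraries at -0.0317 (WT and Cis_KO), -0.0653 (WT and Cis_Stat6_DKO) and 0.0133 (Cis_KO and Cis_Stat6_DKO). The main fit used no pairing, and such correlations cannot show whether same-numbered libraries shared a preparation.

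Of the 27 genes, the calls between Cis_Stat6_DKO and Cis_KO were 0, against 4 with DESeq2, 6 without a filter (Igf1, Dcstamp, Cd200r1, Batf3, Emp1 and Ch25h) and 1 on log2(FPKM + 1) (Dcstamp), with 0 to 9 when 1 library was left out. Against WT they were 4 with DESeq2, 3 without a filter (Cdh1, Igf1 and Ch25h), 4 with only the genotypes compared (Cdh1, Dcstamp, Fcgr2b and Ch25h) and 1 on log2(FPKM + 1) (Ch25h), with 0 to 4. Between Cis_KO and WT they were 3 with DESeq2 and 4 without a filter (Cdh1, Dcstamp, Fcgr2b and Emp1), with 0 to 10. Against both genotypes with STAT6 they were 3 with DESeq2, 5 without a filter and 1 on log2(FPKM + 1), with 0 to 8. The number of genes below all libraries with STAT6 was 1 (Batf3) instead of 3 on FPKM, and 3 to 6 when 1 library was left out, where the number above was 5 to 10. The 6 below came without Cis_Stat6_DKO replicate 1, beside 21.9% of all tested genes, and the 10 above without Cis_Stat6_DKO replicate 2, beside 22.6%.

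The sign of the log2 fold change of Irf4 against WT turned to -0.18 with limma-voom, -0.08 without scaling, -0.07 on log2(FPKM + 1), with or without a minimum, and -0.14 on log2(FPKM + 0.1). When 1 library was left out, values that changed sign ranged from -1.26 to 0.91 for Irf4 and -0.13 to 0.25 for Mrc1, -0.25 to 0.07 for Slc7a2 and -0.04 to 0.27 for Pdcd1lg2 against WT. Against Cis_KO they ranged from -1.45 to 0.52 for Irf4, -0.11 to 0.76 for Mrc1, -0.32 to 0.49 for Slc7a2 and -0.06 to 0.29 for Cdh1. The cause of these shifts was not tested. Limma-voom, RLE size factors, a minimum of 1 CPM, robust empirical Bayes and the removal of haemoglobin, mitochondrial and ribosomal genes moved none of these counts by over 1.5 times. The intervals of Arg1, Mgl2, Clec10a, Ccl17, Matk, Hbegf, Ak4, Ocstamp and Chdh span severalfold, and how much of that is depth was not tested.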
